A study of Mus musculus with 24 samples.

Results

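C1qa, C1qb, C1qc, Vcam1, Hmox1, Mrc1, Cd5l, Axl, Mertk and Slc40a1 are 10 genes that tissue macrophages are known to express. Their level was followed in lymphoid progenitors of mouse bone marrow that lacked PLCγ1, PLCγ2 or both. The genes were taken by symbol from the 24421 genes counted in each library, and all 10 were found and had reads in both cell populations. RNA-seq was performed on 2 sorted populations, with 3 mice for each of 4 genotypes and 24 libraries in all. Common lymphoid progenitors (CLPs) were sorted as Lin-IL-7R+ cells. The B cell progenitors carried B220 and IL-7R and no surface IgM. Each of the 12 mice gave a CLP and a B library. The genotypes were labelled WT (PLCgamma1+/+PLCgamma2+/+), G1KO (PLCgamma1-/-PLCgamma2+/+), G2KO (PLCgamma1+/+PLCgamma2-/-) and DKO (PLCgamma1-/-PLCgamma2-/-). By the methods of the study, every donor, WT included, carried a YFP reporter and MxCre, a Cre under an interferon-inducible promoter, and received poly(I:C), an inducer of interferon. Plcg1 was floxed and Plcg2 was absent from the germline in the respective genotypes. The mice were 8 to 12 weeks old (6 to 12 weeks in the passage on poly(I:C)), of both sexes and of mixed 129 and C57BL/6 background, and donor marrow was transplanted into lethally irradiated wild-type CD45.1 recipients that were analysed after 6 to 8 weeks. The 3 mice of a group are recipients, and how many donors stood behind them is not given in the sources used here, so the spread between libraries may be smaller than that between donors.

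C1q is the recognition subunit of the classical complement pathway. It is built from A, B and C chains, the products of C1qa, C1qb and C1qc, and unlike most complement proteins it is made by macrophages and related myeloid cells. Bone marrow macrophages clear apoptotic cells, a step in which the receptor tyrosine kinases Axl and Mertk take part. They also sit at the centre of erythroblastic islands, bind neighbouring cells through Vcam1, degrade haem through haem oxygenase 1 (Hmox1) and export the iron through ferroportin (Slc40a1). Mrc1 encodes the mannose receptor CD206, and Cd5l encodes a secreted protein of macrophages also called AIM.

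The 3 C1q genes lie side by side on the minus strand of chromosome 4, within 18.7 kb (GRCm38, chr4:136880126-136898844), each with 3 exons. RefSeq upstream sequence was at hand for 6 of the 10 genes (C1qb, C1qc, Mrc1, Cd5l, Axl and Mertk), and C1qa, Vcam1, Hmox1 and Slc40a1 had no entry. The bases upstream of C1qb and C1qc, the C1q chains with an entry, are shown. They are given 5′ to 3′ on the minus strand in GRCm38.p6, at chr4:136886201-136886450 for C1qb and chr4:136892937-136893164 for C1qc. Each sequence ends at the base before the gene in the RefSeq positions used. Capitals mark a PU.1 core (GAGGAA or TTCCTC) or a MAF motif (TGCTGA or TCAGCA), searched on both strands.
C1qb: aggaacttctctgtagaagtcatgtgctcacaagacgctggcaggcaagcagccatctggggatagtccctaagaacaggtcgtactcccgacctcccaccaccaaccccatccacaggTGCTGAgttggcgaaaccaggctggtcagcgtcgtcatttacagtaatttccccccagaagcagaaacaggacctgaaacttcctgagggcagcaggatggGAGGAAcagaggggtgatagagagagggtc
C1qc: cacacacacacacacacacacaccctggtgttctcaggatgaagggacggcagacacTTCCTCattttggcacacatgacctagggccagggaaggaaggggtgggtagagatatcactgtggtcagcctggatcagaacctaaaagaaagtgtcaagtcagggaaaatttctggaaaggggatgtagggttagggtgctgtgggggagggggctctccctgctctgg
PU.1 is a transcription factor of myeloid and lymphoid cells, and MAF factors act in macrophages. Within 250 bases upstream of the RefSeq start, the PU.1 core was found once each at C1qb, C1qc, Cd5l and Axl, 3 times at Mrc1 and not at Mertk. It was present in 23.3% of all 32851 mouse windows of this length. The MAF motif was found once at C1qb, 2 times at Cd5l and not at the other 4 genes, against 16.1% of all windows. A GATA motif ( AGATAA or TTATCT) was in none of the 6 windows, against 9.99% of all windows. These are matches of letters, and binding was not measured.

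The depth ranged from 4232345 to 33219995 reads on genes in the CLP libraries (median 16744580) and from 1479582 to 25057223 in the B libraries. Reads outside any gene made up 17.9% to 45.2% of the counted reads in CLPs and 59.9% to 87.3% in the B libraries. B lineage genes were not restricted to the B libraries. Cd79a, a signalling chain of the B cell receptor, lay between 107 and 1183 CPM (the usual depth-scaled count over reads on genes, normalized between libraries by TMM) in the CLP libraries and between 270.1 and 955 CPM in the B libraries. Plcg2 was lower in the libraries labelled PLCgamma2-/- (B libraries: WT 234 ± 19.3, G2KO 89.1 ± 9.53, DKO 91.6 ± 19.3 CPM, SD, n = 3). Plcg1 was not lower in those labelled PLCgamma1-/- (B libraries: WT 92.8 ± 15.97, G1KO 78.8 ± 18.7, DKO 127 ± 65.4 CPM, SD, n = 3), and counts over the whole gene cannot show the removal of floxed exons. The genotype names below are therefore those of the labels. Xist was between 1294 and 2314 CPM in every library labelled PLCgamma1-/- and between 23.6 and 743 CPM in the others, so donor sex and Plcg1 genotype cannot be told apart. DKO against G1KO compares libraries that all had high Xist, and G2KO against WT libraries that all had lower Xist, over that wide range. Xist and the Y-linked Ddx3y, Eif2s3y, Kdm5d and Uty were the sex-linked genes fitted. In DKO against G1KO CLPs, 0 of these 5 had higher values, with a median log2 fold change of -1.55. These comparisons are therefore not shown to be matched for sex. In sorted bulk RNA, fewer cells of a type and less RNA per cell cannot be told apart either.

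The macrophage genes were detected at low levels. Per kilobase of exon, the mean over the 24 libraries was highest for Hmox1 (14.4 ± 5.74 RPKM, the CPM per kilobase, SD), above Slc40a1 in 22 of 24 libraries. Slc40a1 (7.24 ± 3.05), Vcam1 (6.96 ± 2.72), C1qa (6.84 ± 3.04), C1qb (6.22 ± 2.37) and C1qc (5.94 ± 2.45) followed on the same scale, and neighbours in this order did not differ beyond the spread between libraries. C1qc was above Axl (3.54 ± 1.17) in 22 of 24 libraries, and Axl was above Mrc1 (2.01 ± 0.803) in 20. Cd5l (1.49 ± 0.752) and Mertk (0.460 ± 0.340) were the lowest. The median ratio of the highest to the lowest C1q chain of a library was 1.40 per kilobase, and 22 of 24 libraries had the chains within 2-fold of each other. Hmox1 lay above 76.0% and Mertk above 42.3% of the 22470 genes with reads. In reads rather than rates, C1qa had between 6 and 288 reads and Mertk between 4 and 67. Cd5l had 0 reads in the CLP library G2KO replicate 3, a count that allows up to 0.709 CPM (3 reads of its total, counting error only).

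**Figure D1:**
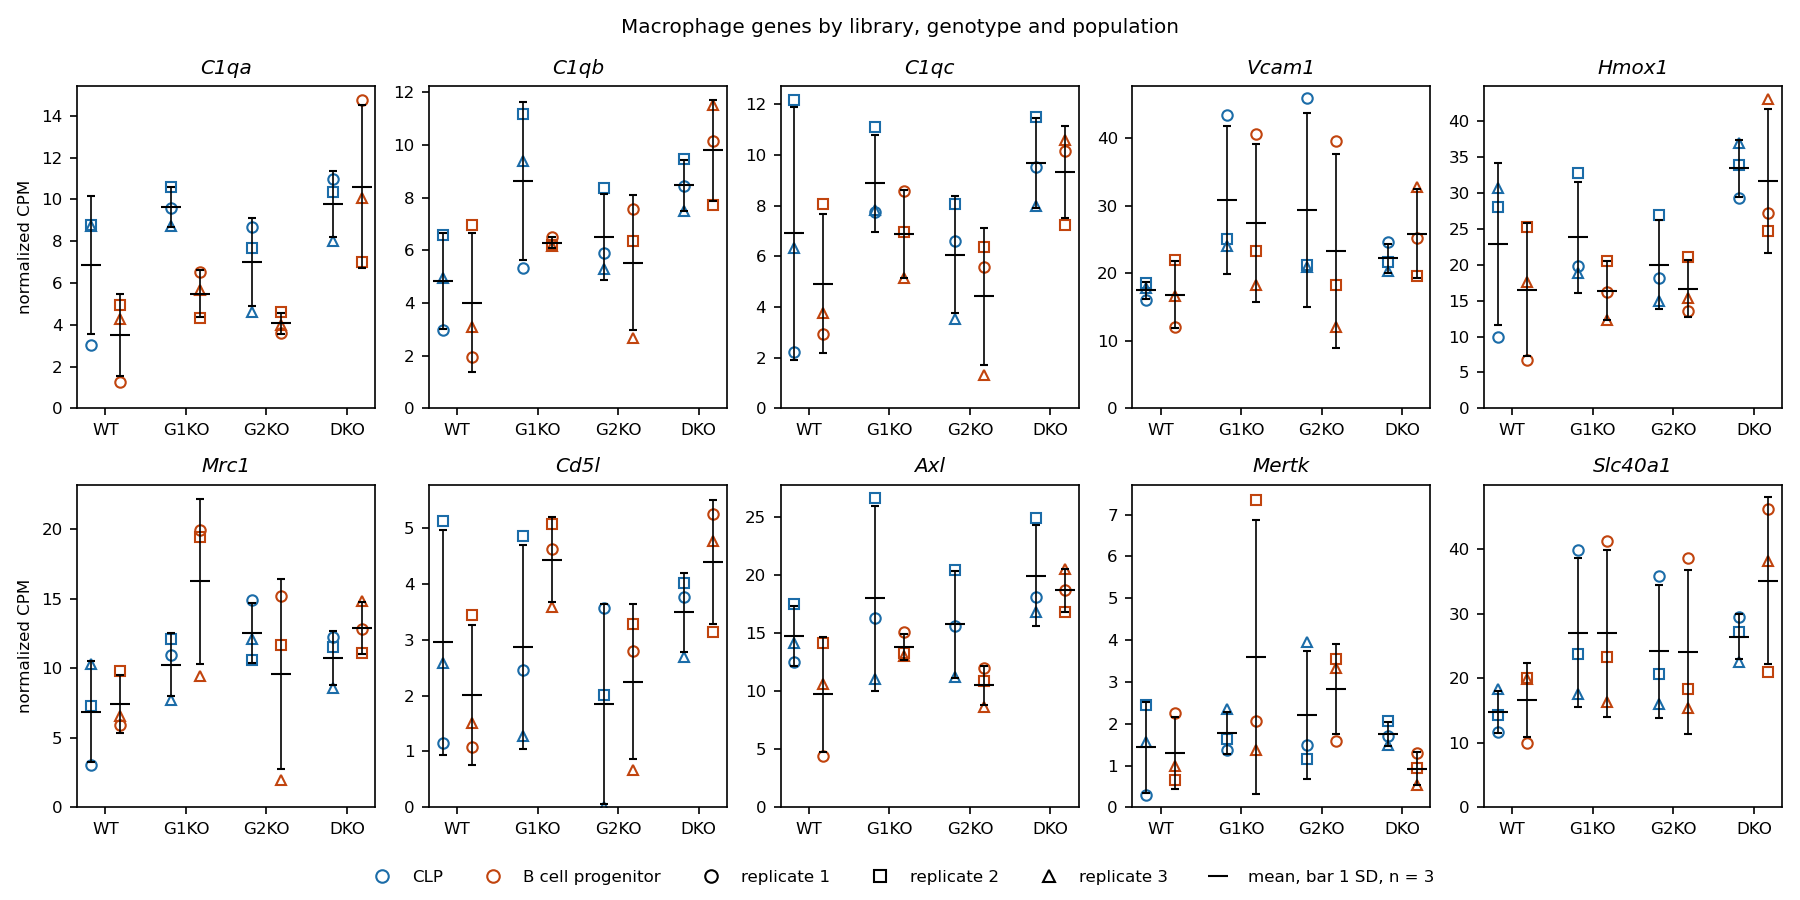
Normalized CPM of each gene in the 24 libraries, by labelled genotype, with CLPs in blue and B cell progenitors in orange. Symbols give the replicate number, horizontal lines the mean and bars 1 SD of 3 mice. WT replicate 1 is the lowest CLP library for 8 of the 10 genes, and the DKO libraries hold the highest B library for 7 of them.

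The comparison of DKO with WT asked whether loss of both PLCγ isoforms altered these transcripts. None of the 10 genes passed the threshold in either population (edgeR quasi-likelihood test, Benjamini-Hochberg adjusted p of 0.05 or less and a log2 fold change of at least 0.5). Among all genes tested, 0.893% were called in the B libraries and 0.0921% in the CLP libraries. The fitted values were higher in the DKO for 9 of 10 genes in the B libraries, with a median log2 fold change of 0.94 against -0.02 for all genes tested, and for 10 of 10 in the CLP libraries, with a median of 0.52 against -0.03. At an unadjusted p of 0.05 or less there were 5 genes in the B libraries (12.3% of all genes tested) and 2 in the CLP libraries (7.52%). WT replicate 1 had the lowest level of 6 genes among the B libraries and of 8 among the CLP libraries. Without it the median was 0.66 in the B libraries, with 3 genes at that unadjusted p, and 0.21 in the CLP libraries, with 0. Without WT replicate 2 or 3 the median rose to 1.34 or 0.99 in the B libraries, with 7 or 4 such genes. In the CLP libraries it rose to 0.78 or 0.67, with 2 such genes in each case. With a library left out, the share of all genes at that p was not computed. The fitted values of the single knockouts also lay mostly above WT, as given below.

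C1qa had the largest value of the 10 in the B libraries. The 3 WT libraries had 1.28, 4.94 and 4.30 CPM, and the 3 DKO libraries had 14.8, 6.99 and 10.1 CPM. Every DKO library was above every WT library. The log2 fold change was 1.57 ± 0.45 (SE), with a 95% interval from 0.59 to 2.55 and an adjusted p of 0.166 in edgeR. DESeq2, an alternative tool, gave 1.59 with an adjusted p of 0.0328 and called C1qa as its only gene of the 10. Among all 15001 genes tested DESeq2 called 438, against 134 by edgeR. Over all alternatives the adjusted p lay between 0.0328 and 0.688. Without WT replicate 1 the value was 1.17.

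C1qb was at 1.97, 6.98 and 3.09 CPM in the WT B libraries and at 10.2, 7.72 and 11.5 CPM in the DKO B libraries. Its groups did not overlap, and the log2 fold change was 1.29 ± 0.44 (SE, edgeR adjusted p = 0.252). C1qc had 2.95, 8.06 and 3.77 CPM in WT and 10.2, 7.25 and 10.6 CPM in the DKO, and its groups overlapped (log2 fold change 0.92 ± 0.46, edgeR adjusted p = 0.450). Groups that did not overlap, with the DKO above, were seen for 5 of the 10 genes (C1qa, C1qb, Mrc1, Axl and Slc40a1), against 8.13% of all genes. In the CLP libraries the same comparison gave 3 of 10 (C1qb, Vcam1 and Slc40a1), against 5.64%. The summed level of the 3 chains was 12.4 ± 6.98 CPM in WT and 29.7 ± 6.89 CPM in DKO B libraries (SD, n = 3). In the CLP libraries it was 18.6 ± 9.72 and 27.9 ± 4.003 CPM, where C1qa, C1qb and C1qc had log2 fold changes of 0.52, 0.82 and 0.52. Without WT replicate 1 these were 0.14, 0.55 and 0.07.

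The apoptotic cell receptors Axl and Mertk had no call, and their difference was not tested. In the CLP libraries their log2 fold changes for DKO against WT were 0.43 ± 0.31 for Axl and 0.36 ± 0.67 for Mertk (SE), and -0.17 for Mertk without WT replicate 1. Axl in B libraries was at 4.43, 14.2 and 10.6 CPM in the WT and at 18.7, 16.9 and 20.5 CPM in the DKO B libraries, with no overlap (log2 fold change 0.94 ± 0.32, SE, edgeR adjusted p = 0.252). Without WT replicate 1 its value was 0.59. Mertk was at 2.26, 0.64 and 0.98 CPM in WT and 1.31, 0.94 and 0.53 CPM in the DKO, where its groups overlapped (log2 fold change -0.54 ± 0.77). Without WT replicate 1 the Mertk value turned to 0.13. Mertk was the lowest of the 10 genes and rested on 4 to 22 reads in the DKO B libraries. An antisense gene, Gm14011, overlaps it, and without strand the reads of the pair cannot be told apart.

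Hmox1 and Slc40a1, which act in succession in haem and iron recycling, had higher fitted values in the DKO of both populations. Hmox1 was at 6.79, 25.2 and 17.6 CPM in WT and at 27.2, 24.7 and 43.0 CPM in the DKO B libraries, and the highest WT library was just above the lowest DKO library (log2 fold change 0.94 ± 0.39, SE, edgeR adjusted p = 0.357). Without WT replicate 1 the value was 0.57 for Hmox1. Slc40a1 was at 10.03, 20.1 and 19.8 CPM in WT and at 46.2, 20.9 and 38.1 CPM in the DKO B libraries (log2 fold change 1.06 ± 0.43, adjusted p = 0.342). Its groups did not overlap, though the highest WT and the lowest DKO library were within 1 CPM. In the CLP libraries Slc40a1 was at 11.7, 14.4 and 18.3 CPM in WT and at 29.5, 27.2 and 22.6 CPM in the DKO, with no overlap (log2 fold change 0.82 ± 0.34, adjusted p = 0.614). Hmox1 in the CLP libraries overlapped between WT (9.91, 28.0 and 30.6 CPM) and DKO (29.2, 33.9 and 37.0 CPM), and its log2 fold change of 0.54 was 0.17 without WT replicate 1.

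Vcam1, the adhesion molecule, had log2 fold changes of 0.34 ± 0.31 in the CLP and 0.62 ± 0.40 in the B libraries for DKO against WT. The mannose receptor gene Mrc1 had 0.63 ± 0.37 and 0.80 ± 0.45, and Cd5l had 0.30 ± 0.82 and 1.11 ± 0.54 (SE). Without WT replicate 1 the CLP values were 0.25 for Mrc1 and -0.12 for Cd5l. The wide error of Cd5l in the CLP libraries went with levels between 0 and 5.12 CPM.

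**Figure D2:**
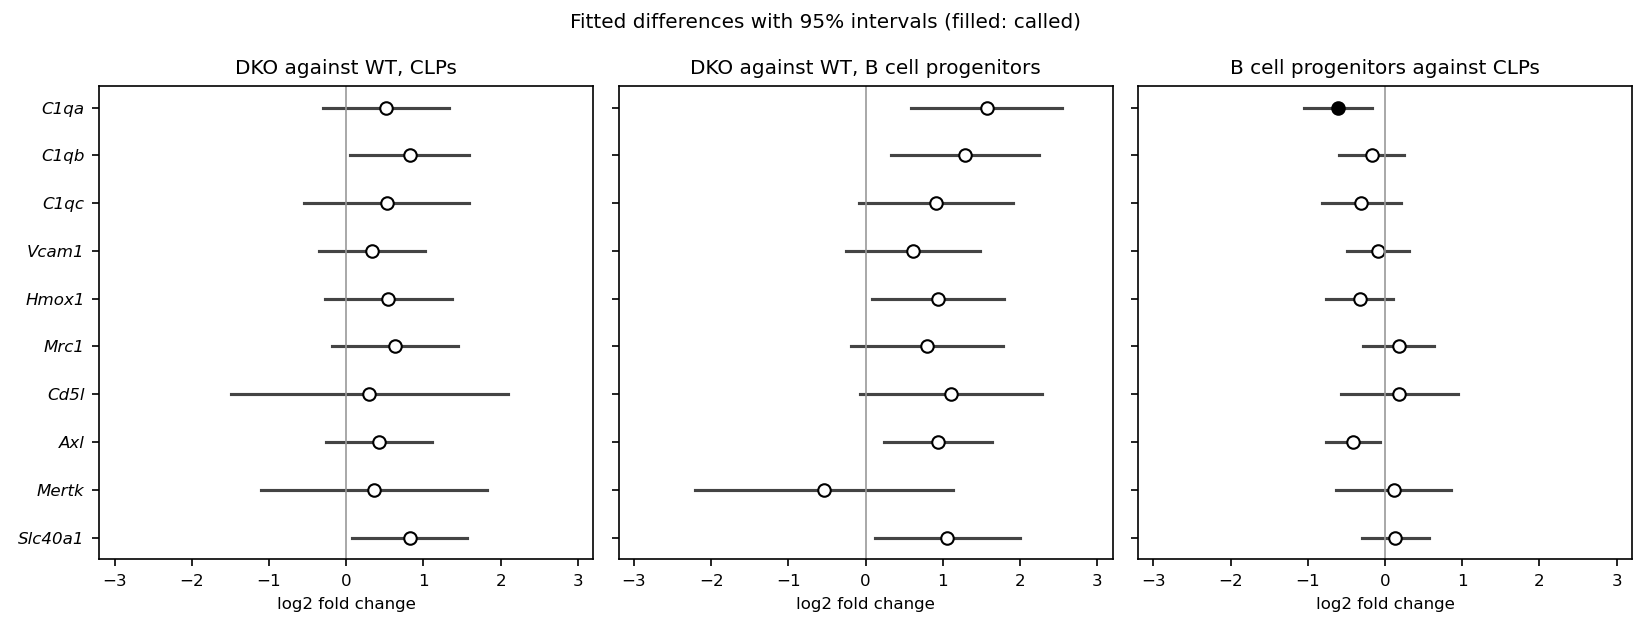
Log2 fold changes of the 10 genes fitted by edgeR, with 95% intervals as lines, for DKO against WT in CLPs (left) and in B cell progenitors (middle) and for B cell progenitors against CLPs over the 4 genotypes (right). A filled circle marks the only value that passed the threshold, C1qa in the right panel (-0.61), and the point of Mertk is the only one below 0 in the middle panel.

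Whether the DKO effect differed between B and CLP libraries was tested as an interaction. None of the 10 genes was called for the DKO, G1KO or G2KO effect, and 0% of all genes were called. The largest difference of the DKO effects was that of C1qa (log2 1.04 ± 0.59 larger in the B libraries, SE, edgeR adjusted p = 1.00), and 0 of the 10 genes reached an unadjusted p of 0.05. That fit did not pair the 2 libraries of a mouse. With the mouse as a block, 1 of the 10 genes reached an unadjusted p of 0.05 for the DKO effect, and 0 were called. For that fit the share of all genes at this p was not computed. DESeq2 called 0 of the 10 as well.

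Loss of PLCγ1 or PLCγ2 alone gave no called gene among the 10 in either population, by edgeR or by DESeq2. The background was 0.00658% of all genes for G1KO and 0% for G2KO in the CLP libraries, and 0.06% and 0.0467% in the B libraries. Fitted values lay mostly above WT here too. In the CLP libraries they were higher for 10 of 10 genes in the G1KO (median log2 fold change 0.46, against -0.01 for all genes tested). In the G2KO CLPs it was 7 of 10 (0.30 against 0.009). In the B libraries it was 10 of 10 in the G1KO (0.69 against 0.06) and 10 of 10 in the G2KO (0.40 against 0.03). The DKO comparisons used the same WT libraries. In the CLP libraries Vcam1 was at 16.1, 18.5 and 17.9 CPM in WT, at 43.4, 25.01 and 23.97 CPM in the G1KO and at 45.8, 21.3 and 20.9 CPM in the G2KO. Both knockout groups lay above WT without overlap, and in each the library of replicate 1 was well above the other two. The log2 fold changes were 0.82 ± 0.31 and 0.76 ± 0.32 (SE, edgeR adjusted p = 1.00 and 0.939), and without replicate 1 of the knockout they were 0.49 and 0.27. These comparisons share the WT libraries. Slc40a1 had the same high library, with 39.8, 23.8 and 17.5 CPM in the G1KO CLPs and 35.8, 20.6 and 16.1 CPM in the G2KO CLPs. Mrc1 in the G1KO B libraries was at 19.9, 19.4 and 9.40 CPM against 5.90, 9.77 and 6.56 CPM in WT, with an overlap (log2 fold change 1.15 ± 0.45, adjusted p = 0.467). At an unadjusted p of 0.05 or less there were 3 of the 10 genes in the G1KO CLPs (C1qb, Vcam1 and Slc40a1; 2.85% of all genes), 2 in the G2KO CLPs (Vcam1 and Mrc1; 3.92%), 1 in the G1KO B libraries (Mrc1; 9.93%) and 0 in the G2KO B libraries (2.84%). Groups without overlap, with the knockout above WT, were seen for 1 gene in the G1KO CLPs (Vcam1; 3.02% of all genes), 2 in the G2KO CLPs (Vcam1 and Mrc1; 3.16%), 1 in the G1KO B libraries (Cd5l; 8.83%) and 0 in the G2KO B libraries (4.98%).

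The DKO was also compared with each single knockout, and again 0 of the 10 genes were called (background 0.0263% and 0.0526% in CLP, 0.213% and 0.153% in B libraries, against G1KO and G2KO), also by DESeq2. Against G1KO the fitted values were higher in the DKO for 6 of 10 genes in each population (median log2 fold change 0.04 in CLP and 0.37 in B libraries). Against G2KO it was 7 of 10 in the CLP (0.33) and 9 of 10 in the B libraries (0.76). The medians of all genes tested were between -0.03 and -0.02. C1qa, C1qb, Hmox1 and Axl were above all G1KO libraries in all 3 DKO B libraries, against 5.54% of all genes, and these genes and C1qc were above all G2KO libraries, against 5.12%. In the CLP libraries 0 genes were above all G1KO libraries (3.93% of all genes) and 1, Hmox1, was above all G2KO libraries (6.57%). At an unadjusted p of 0.05 or less there were 2 of the 10 genes in the B libraries against each single knockout (16.6% and 11% of all genes) and 0 in the CLP libraries (4.29% and 7.54%). C1qa was at 6.53, 4.31 and 5.64 CPM in the G1KO and at 3.59, 4.61 and 4.003 CPM in the G2KO B libraries. In the comparison with G1KO, whose libraries also had high Xist, the log2 fold change was 0.93 ± 0.40 for Hmox1 (SE, edgeR adjusted p = 0.268). Against G2KO it was 1.31 ± 0.47 for C1qa (adjusted p = 0.381) and 0.79 ± 0.34 for Axl (adjusted p = 0.427). Mertk went the other way: the G1KO B libraries had 2.07, 7.35 and 1.37 CPM, all above the DKO libraries as for 12.7% of all genes (log2 fold change -2.03 ± 0.77, adjusted p = 0.216). The library G1KO replicate 2 carried much of this value, which was -0.96 without it. The G2KO B libraries had 1.59, 3.55 and 3.34 CPM of Mertk (4, 67 and 5 reads). They too were all above the DKO libraries, as for 8.77% of all genes (log2 fold change -1.69 ± 0.79, SE, edgeR adjusted p = 0.463).

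B cell progenitors and CLPs were then compared over the 4 genotypes. C1qa was the only gene of the 10 that passed, and it was lower in the B libraries (log2 fold change -0.61 ± 0.21, SE, 95% interval from -1.05 to -0.17, edgeR adjusted p = 0.0343). Of all genes tested, 14.4% were called in this comparison. This fit did not pair the 2 libraries of a mouse, so its error and interval treat them as independent. With the mouse as a block C1qa was again the only gene of the 10 called, among 2118 of 17212 genes. C1qa was lower in the B than in the CLP library of 10 of 12 mice, and the exceptions were the DKO mice 1 and 3. The value was -0.95 in WT, -0.82 in G1KO, -0.77 in G2KO and 0.09 in DKO mice, and none of the 10 genes was called within a single genotype (background 3.5%, 3.78%, 3.21% and 3.24% of all genes), nor by DESeq2. Axl had -0.41 ± 0.17 (adjusted p = 0.0707), and the other 8 genes were between -0.33 for Hmox1 and 0.19 for Cd5l. The call of C1qa was lost when any 1 of 4 libraries was left out (CLP G2KO replicate 1, CLP WT replicate 3, B G1KO replicate 2 or B DKO replicate 2; adjusted p up to 0.0565) and when all libraries were thinned to the smallest (log2 fold change -0.20). The share of reads on no gene, higher in every B library, moved with this comparison, and its part in the result was not tested.

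The levels in the 2 libraries of a mouse went together. The summed CPM of the 10 genes ranged from 63.0 to 160 in the CLP and from 48.7 to 187 in the B libraries. Over the 12 mice the log2 sums of the CLP and B library had a Pearson r of 0.88 (permutation p = 0.00017, adjusted over 5 relations 0.00085) and a Spearman rho of 0.78 (permutation p = 0.00425, adjusted 0.0212, both two-sided). Without the 2 mice farthest from the median of the CLP libraries r was 0.65 (permutation p = 0.0459). WT mouse 1 was the lowest in both populations. Against the depth of a library the sum gave a Pearson r of 0.33 in the CLP and -0.07 in the B libraries. Against the share of reads on no gene it gave -0.47 and -0.29, and the 4 adjusted permutation p-values were between 0.313 and 0.840. The Spearman rho with that share was -0.70 in the CLP libraries (permutation p = 0.0143, adjusted 0.0357) and -0.24 in the B libraries (permutation p = 0.457, adjusted 0.459). Without the 2 libraries farthest from the median of depth or share, r was 0.20 and -0.50 for depth and -0.30 and -0.61 for the share, in CLP and B libraries. These p-values take no account of genotype. When deviations from the genotype means were used, r between the CLP and B library was 0.84 (exact permutation within genotypes, p = 0.0201, adjusted over the same 5 relations 0.1003), and 0.74 without WT mouse 1 (exact permutation p = 0.0926). The relation thus did not pass the correction within genotypes. With depth and with the share of reads on no gene, r within genotypes was between -0.52 and 0.27, with adjusted exact p-values of 0.343 to 0.954.

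**Figure D3:**
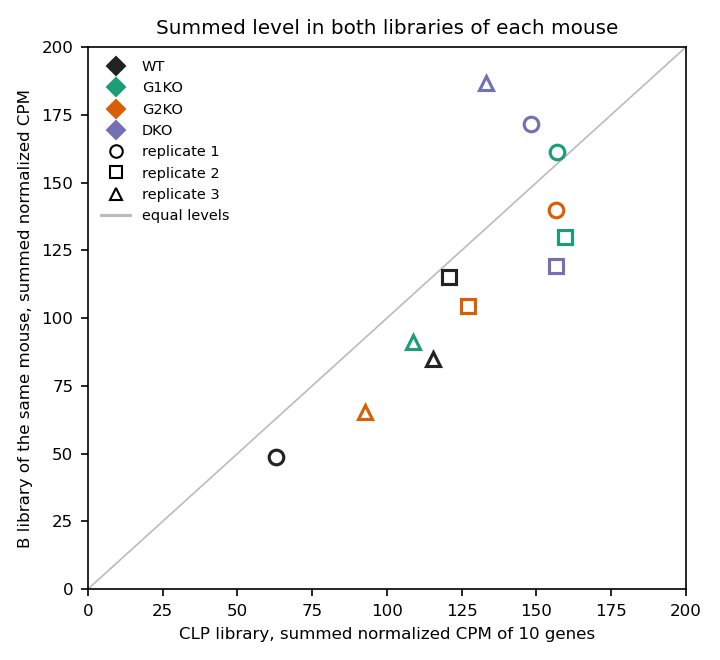
Summed normalized CPM of the 10 genes in the CLP library (horizontal axis) and in the B library (vertical axis) of each of the 12 mice, coloured by labelled genotype, with symbols for the replicate number and a line of equal levels. WT mouse 1 lies lowest on both axes (63.0 and 48.7 CPM), and 9 of 12 mice lie below the line.

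Across the 24 libraries C1qa, C1qb, C1qc, Axl and Hmox1 varied together, as did Vcam1 and Slc40a1. Correlations of log2 CPM are descriptions over libraries that share mice, and carry no test. The former 5 genes had Pearson r between 0.74 and 0.86 with each other. Vcam1 and Slc40a1 had an r of 0.86, and they had 0.71 and 0.68 with Mrc1, whose highest r was that with C1qc (0.73). Mertk had between -0.26 and 0.18 with the other 9 genes over all libraries, and its r with the C1q chains differed in sign between the populations. With C1qa, C1qb and C1qc its r was 0.45, 0.51 and 0.46 in the 12 CLP libraries and -0.39, -0.36 and -0.36 in the 12 B libraries. With Mrc1 it was 0.66 and -0.06. All 17212 genes were ranked by their r with the C1q sum, of which the 3 chains are themselves part. Apart from these chains, Axl (0.86) and Hmox1 (0.83) came first, at ranks 4 and 5. Slc40a1, Mrc1 and Cd5l were also within the top 100, at ranks 29, 33 and 47. Vcam1 ranked 118 (0.56) and Mertk 8612 (-0.07). The genes outside the list with the highest r were Rnf41 (0.74), Pklr (0.72), Pdzk1ip1 (0.72), Creb3 (0.72), Hebp1 (0.71), Fcna (0.70), Igfbp6 (0.70), Slc25a20 (0.69), Chp2 (0.68) and Lenep (0.68). Rnf41 encodes a ubiquitin ligase, Pklr the pyruvate kinase of liver and red cells, Hebp1 a haem-binding protein and Fcna ficolin A, a lectin made by macrophages.

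**Figure D4:**
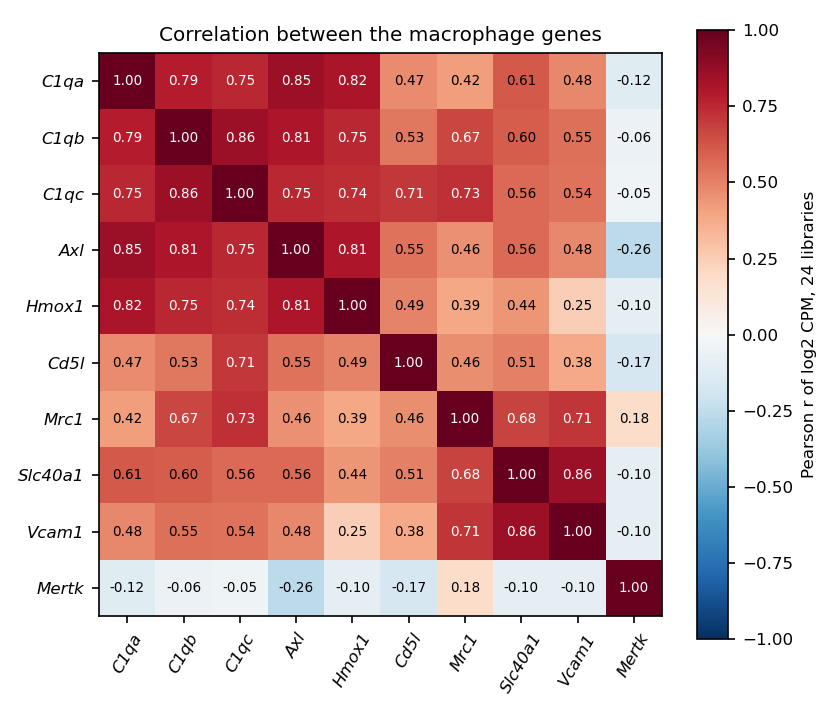
Pearson r of log2 CPM between the 10 genes over the 24 libraries, with values in the cells and colour from -1 (blue) to 1 (red). C1qa, C1qb, C1qc, Axl and Hmox1 form a block of 0.74 to 0.86, Vcam1 and Slc40a1 have 0.86, and the row of Mertk stays between -0.26 and 0.18.

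Other myeloid transcripts were present at higher levels than the 10 genes. Lyz2, the lysozyme of macrophages and other myeloid cells, was between 289 and 2153 CPM, and the 10 monocyte markers together were between 651 and 3059 CPM. In the knockout libraries the monocyte sum went with the replicate number: it was 2736 to 3059 CPM in CLP and 2900 to 3026 CPM in B libraries of replicate 1, and 923 to 1002 CPM and 651 to 867 CPM in those of replicate 2. The WT libraries of replicate 1 were outside this pattern, with 1028 and 719 CPM. Vcam1 and Slc40a1, taken as a pair for their high replicate 1 in the single knockouts, had a joint r of 0.68 with the monocyte sum. The C1q sum had 0.23, both over the 24 libraries. The pair was thus chosen by libraries in which the monocyte sum was high, and this choice favoured a high r. In the DKO B libraries Vcam1 was highest in replicate 3 (32.7 CPM, against 25.2 CPM in replicate 1). Monocyte markers were not particular in this. Over the marker lists named below, the r of Vcam1 and Slc40a1 ran from -0.40 (B lineage) to 0.71 (neutrophil), with 0.68 for plasma cell genes. That of the C1q sum ran from 0.004 (endothelial) to 0.55 (classical complement), with 0.34 for neutrophil markers. The part of these markers in the results above was not tested.

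**Figure D5:**
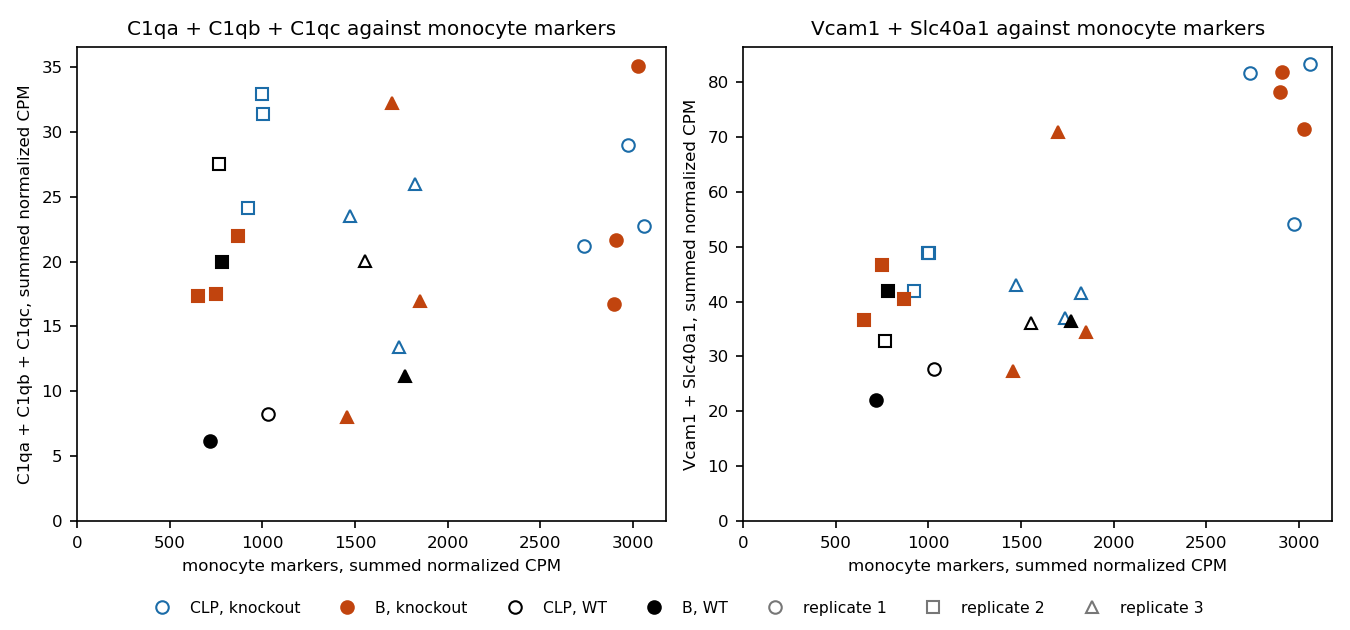
Summed CPM of C1qa, C1qb and C1qc (left) and of Vcam1 and Slc40a1 (right) against the summed CPM of 10 monocyte markers in the 24 libraries (open symbols CLP, filled symbols B, black WT), with symbols for the replicate number. The 6 knockout libraries of replicate 1 lie apart at 2736 CPM or more on the horizontal axis, while the libraries with the highest C1q sum lie on both sides of the plot.

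Of 35 other macrophage genes, 34 were in the files, with a summed level of 1384 to 4846 CPM. The highest means were those of Lyz2, Mpeg1, Ctsb and Ctsd (1021, 555, 368 and 258 CPM), genes of lysosomes and host defence that other myeloid cells also express. Csf1r, the receptor for macrophage colony-stimulating factor, lay between 33.5 and 242 CPM. Among markers of resident macrophages, chosen here after their values were seen, levels were lower. Adgre1, which encodes F4/80, was between 8.53 and 51.0 CPM, and Siglec1 (CD169) between 1.37 and 5.96 CPM. Spic, a factor of iron-recycling macrophages, was between 0 and 4.31 CPM, and Timd4, an apoptotic cell receptor, between 0 and 4.56 CPM. Of the list, 31 were tested in each population and 0 were called for DKO against WT. Their fitted values were higher in the DKO for 28 of 31 in the B and 25 of 31 in the CLP libraries, with medians of 0.55 and 0.23. The only call against WT in this list was Cd36, a scavenger receptor, which was higher in the G2KO B libraries (log2 fold change 2.25 ± 0.29, SE, edgeR adjusted p = 0.0192). Between B and CLP libraries 6 of 34 passed, beside the 14.4% of all genes called in that comparison, so the count was near the background. The same share applies to the lists below. Marco (1.75) and Cd36 (0.87) were higher in the B libraries, and Ctsd (-0.93), Cd163 (-0.83), Trf (-0.78) and Cd68 (-0.60) were lower.

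The partners of C1q, and the genes that act with the other members, had no call for DKO against WT either. Among 18 genes of the classical complement pathway and C1q binding, 0 of 16 tested passed in the B and 0 of 17 in the CLP libraries. The C1q-associated proteases C1ra (0.64 to 4.94 CPM) and C1s1 (0.07 to 5.45 CPM) were low, and the highest of the list were Calr, Cd93, C3 and C1qbp (means of 769, 394, 192 and 138 CPM). Between B and CLP libraries the anaphylatoxin receptor genes C3ar1 (-1.47) and C5ar1 (-1.04) were lower in the B libraries. Of 20 tested genes of haem and iron handling, led by the ferritin chains Fth1 and Ftl1 (769 and 574 CPM) with Tfrc and Ireb2 (500 and 156 CPM), 0 passed for DKO against WT and Cp (0.86) was higher in B than CLP libraries. Of the ligands of Axl and Mertk and the apoptotic cell uptake genes, 0 of 15 in B and 0 of 16 in CLP libraries passed. Gas6, a ligand of both receptors, was between 1.48 and 10.6 CPM, and Pros1, a ligand of Mertk, between 2.90 and 21.6 CPM. Rac1, Anxa1, Elmo1 and Itgb3 led this list (338, 233, 115 and 67.9 CPM), and Stab2 (-2.47), Itgb3 (-0.93) and Mfge8 (-0.51) were lower in the B libraries. The integrin chains that bind Vcam1, Itga4, Itgb1 and Itgb7, were at means of 629, 291 and 217 CPM. None of them passed for DKO against WT, and Itgb7 (-0.82) was lower in the B libraries.

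Markers of other cells were counted in the same comparison of DKO with WT. Of 11 neutrophil markers (highest Mpo, Elane, Prtn3 and Ngp), 10 monocyte markers (F13a1, Ly6c2, Ccr2 and Klf4), 8 erythroid markers tested (Car2, Car1, Slc4a1 and Alas2) and 9 stromal markers (Col1a1, Col1a2, Cxcl12 and Pdgfrb), 0 passed in either population. Their medians were 1.39, 0.84, 0.69 and 0.63 in the B and 1.27, 0.72, 0.96 and 0.71 in the CLP libraries, beside 0.94 and 0.52 for the 10 macrophage genes. All 6 globin genes of the erythroid list are listed at 0 reads in all 24 libraries, while Slc4a1, Alas2 and Car2 had reads, and whether globin reads were removed before counting is not given in the sources used here. Dendritic cell markers (Irf8, Ly6c2, Tcf4 and Runx2) had 0 of 12 called and medians of 0.72 in the B and -0.09 in the CLP libraries. Endothelial genes (led by Stab2, Cdh5, Kdr and Ptprb; 0.45 and -0.27), T and NK cell genes (Nkg7, Klrb1c, Cd4 and Ncr1; 0.87 and -0.62), B lineage genes (Rag1, Dntt and Cd79a among the highest; 0.25 and 0.25) and lymphoid progenitor genes (Dntt, Il7r, Notch1 and Ly6d; 0.60 and -0.38) had no call. Of 5 plasma cell genes (Jchain, Mzb1, Xbp1 and Sdc1 the highest; medians 0.50 and 0.38), Sdc1 was lower in the DKO B libraries (-1.44, edgeR adjusted p = 0.0261). The part of these cells in the values of the macrophage genes was not tested.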

How the data were processed

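RNA-seq of 24 libraries (8 groups of population and genotype, 3 mice each) was analysed from the deposited counts. Per the labels and the study's methods, the authors aligned reads with STAR 2.5.0a to mm10 and deposited whole-number counts per RefSeq gene. The counter and its strand setting are not given in the sources used here. Lines for reads on no gene or on several genes were left out of library sizes. Genes were filtered with filterByExpr, normalized by TMM and tested with the edgeR 4.0.16 quasi-likelihood test (R 4.3.3). Genotypes were compared within a population (12 libraries; 15209 CLP and 15001 B genes tested), and populations and interactions in a fit of all 24 (17212 genes). A gene was called at a Benjamini-Hochberg adjusted p of 0.05 or less where its log2 fold change was 0.5 or more in size. Levels are normalized CPM, correlations used log2 CPM with a prior count of 2, and the relations between sums used 100000 permutations. Intervals are 95% intervals. DESeq2 1.42.0 and other settings were alternatives. The fits were tested on simulated counts.

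CLP and B libraries of a mouse are pairs by the labels, and the fit with the mouse as a block kept the call of C1qa. All 10 genes are named in each comparison. Of the other lists, counts, the called genes and the 4 with the highest mean are named, and as like genes the 10 with the highest r. A marker gene under this rule is not reported here. The genes and lists were chosen with earlier results of these data known. Upstream bases and gene positions are RefSeq's (GRCm38.p6), exons and strands GENCODE M21's.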

Additional observations from a re-analysis of the deposited data

How the results depend on the processing

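The counts of called macrophage genes and the relation between both libraries of a mouse were recomputed 127 times under other settings (adjusted p alone, RLE size factors, no filter, DESeq2, thinning to the smallest library, a replicate block, only the 2 groups compared, CPM without TMM and, chosen after seeing the data, both libraries of WT mouse 1 left out and deviations from genotype means), and all but 3 stayed as reported. DESeq2 called 1 gene (C1qa) for DKO against WT in B libraries, and thinning left 0 calls between B and CLP libraries. The relation within genotypes passed by its unadjusted exact p alone (r 0.84), and without WT mouse 1 (r 0.74) it did not. With 1 library left out the count of calls between B and CLP libraries was 0 to 2, with Axl the added gene. Thinning turned the log2 fold change of C1qb (-0.0057), Cd5l (-0.30) and Mertk (-0.40) for DKO against WT in CLPs, of C1qc (-0.58) in B libraries, and of C1qc (0.21) and Slc40a1 (-0.066) between B and CLP libraries, where Mertk was -0.24 without WT mouse 1. With 1 library left out, DKO against WT ranged from -0.12 to 0.89 for Cd5l and from -0.17 to 0.86 for Mertk in CLPs, and from -0.84 to 0.13 for Mertk in B libraries. B against CLP ranged from -0.033 to 0.32 for Cd5l, from -0.18 to 0.20 for Mertk and from -0.063 to 0.20 for Slc40a1. The cause of these changes was not tested, beyond the fewer reads that thinning leaves.

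Over all genes, DKO against WT gave 14 calls in CLPs (171 by DESeq2, 50 with the replicate block, 5 thinned, 0 with only the 2 groups) and 134 in B libraries (438, 550, 33 and 238). B against CLP gave 2476 (671 thinned, 5188 by adjusted p alone). With the replicate block 0 macrophage genes were called between genotypes. Replicate numbers are no stated batch. Same-numbered libraries deviated together (every correlation over 0.1) for DKO and G1KO CLPs (0.35, 0.61 and 0.35), DKO and G2KO CLPs (0.20, 0.48 and 0.33) and DKO and G2KO B libraries (0.25, 0.17 and 0.13), which counts as pairs. With the block these gave 17, 26 and 46 calls over all genes (4, 8 and 23 without) and 0 macrophage genes. It was not so for DKO and G1KO B libraries or any comparison with WT (DKO and WT CLPs 0.077, -0.12 and 0.23).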
